A study of Mus musculus with 8 samples.

Results

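Genes of tenocytes, the fibroblast-like cells of tendon, and of the tendon matrix were examined in the gastrocnemius, the large calf muscle that ends in the Achilles tendon. The 8 genes were named by symbol (Tnmd, Scx, Mkx, Comp, Thbs4, Cilp, Cilp2 and Chad), and all 8 were found among the 35949 gene rows of the count table. PolyA RNA was sequenced from the muscles of aged mice that had been transplanted with hematopoietic stem cells, the blood-forming cells of the marrow. The donor cells were either control cells (genotype label WT, n = 4 libraries) or cells overexpressing SIRT3, a mitochondrial deacetylase (genotype label T3TG, n = 4 libraries). All recipients were aged and all had received a transplant, so the compared groups differ in the label of the transplanted cells and not in transplantation itself. The library names begin with Mx1 in all 4 WT libraries and with T3 in all 4 T3TG libraries, and what the Mx1 of the controls stands for is not explained. The age of the mice, the promoter behind the overexpression, the conditioning of the recipients and whether each library came from its own animal are not given in the sources at hand. If libraries shared an animal or a pool, the p-values measure only the spread between these samples.

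Tendon joins muscle to bone through parallel bundles of collagen laid down by tenocytes. The transcription factors scleraxis (Scx) and mohawk (Mkx) set the tendon program, and tenomodulin (Tnmd) is a membrane glycoprotein that marks mature tenocytes. Cartilage oligomeric matrix protein (Comp) and thrombospondin 4 (Thbs4) are related pentameric glycoproteins that bind collagen fibrils, chondroadherin (Chad) is a leucine-rich protein that binds collagen and integrins, and the cartilage intermediate layer proteins (Cilp, Cilp2) are secreted matrix proteins of tendon, cartilage and other connective tissue.

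The library totals ran from 16.2 to 28.1 M counts. In T3TG replicates 2 and 3, 97.5% and 98.0% of the values from 10 to 99 were even numbers, against 50.5% to 52.5% in the other 6 libraries, and even counts were found for 7 of the 8 tendon genes in replicate 2 and for 8 of 8 in replicate 3. What made the counts even is not given in the sources at hand, so the number of fragments behind them is not known. The tissue label was borne out by fibre markers, with Acta1, the actin of skeletal muscle, at 32709 ± 1293 CPM in the WT and 32506 ± 4504 CPM in the T3TG libraries (SD, n = 4 each; CPM are counts scaled to library size with TMM library scaling). The 8 tendon genes together made up 0.00477% to 0.0120% of all counts per library, a trace of a muscle library.

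Over the libraries, the levels of Tnmd, Thbs4, Chad and Cilp, in that order, followed the mean profile of the tested tendon genes most closely. Each helped to form that profile, and whether they share regulation was not tested. The bases upstream of the annotated start are given for these 4 genes. They are the 250 bases before the start, 5′ to 3′ on the strand of the gene, from RefSeq for GRCm38.p6, at chrX:133850758-133851007 (plus strand) for Tnmd, chr13:92794819-92795068 (minus strand) for Thbs4, chr9:65264930-65265179 (plus strand) for Cilp and chr11:94564797-94565046 (plus strand) for Chad. In GENCODE M21, used for the coordinates below, Tnmd starts at 133850980, so the last bases of its window lie inside that gene. Capitals mark the letters CANNTG, the E-box to which basic helix-loop-helix factors such as scleraxis bind. The motif reads the same on both strands.
Tnmd: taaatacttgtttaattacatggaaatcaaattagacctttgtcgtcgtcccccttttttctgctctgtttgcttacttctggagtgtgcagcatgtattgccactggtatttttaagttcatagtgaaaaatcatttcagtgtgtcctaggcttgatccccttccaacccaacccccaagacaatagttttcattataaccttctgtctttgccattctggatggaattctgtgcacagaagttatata
Thbs4: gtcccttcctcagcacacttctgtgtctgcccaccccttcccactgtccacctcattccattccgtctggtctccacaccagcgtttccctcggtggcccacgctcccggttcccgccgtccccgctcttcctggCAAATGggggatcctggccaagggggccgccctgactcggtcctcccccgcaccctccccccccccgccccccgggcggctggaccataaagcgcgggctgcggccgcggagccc
Cilp: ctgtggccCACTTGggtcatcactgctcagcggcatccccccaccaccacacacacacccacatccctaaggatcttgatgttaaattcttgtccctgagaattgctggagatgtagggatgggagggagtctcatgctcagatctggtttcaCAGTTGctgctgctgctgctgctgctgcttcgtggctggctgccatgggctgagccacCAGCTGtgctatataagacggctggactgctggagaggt
Chad: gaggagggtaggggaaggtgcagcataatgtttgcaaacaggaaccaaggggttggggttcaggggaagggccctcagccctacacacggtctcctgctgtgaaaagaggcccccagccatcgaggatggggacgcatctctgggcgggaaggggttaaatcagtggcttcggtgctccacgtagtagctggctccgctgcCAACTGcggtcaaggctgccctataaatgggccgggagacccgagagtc
Thbs4 held 1 E-box, starting 115 bases before the start, and Chad held 1 at 49 bases. Cilp held 3, starting 242, 97 and 39 bases before the start, and Tnmd held 0 in this window. Of the 8 genes, 5 had an entry in the table, and 4 of these 5 held the motif, as did 66.2% of all 32851 upstream windows of the same length. A match is a run of letters and not a measured binding site.

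No tendon gene passed the test between the groups. Of the 8 genes, 7 had enough counts to be tested, and 0 of 7 passed over all genes by the edgeR quasi-likelihood test with Benjamini-Hochberg adjustment, against 0.0711% of the 14064 genes tested. At an unadjusted p under 0.05, 0 of 7 were higher, against 5.88% of all genes tested, and 0 of 7 were lower, against 2.45%. With 7 genes, these counts are close to those backgrounds and say little by themselves. DESeq2's Wald test also called 0, with 0 at an unadjusted p under 0.05, and gave no adjusted p for Tnmd, Cilp2 and Chad. Of the 7, 5 had a positive log2 fold change (T3TG minus WT), against 49.1% of all genes, with a median of 0.17 over the 7 and -0.00427 over all genes. The WT and T3TG libraries overlapped in all 8 genes, whereas 4.78% of all genes tested had groups that did not overlap. In bulk muscle, a different number of tenocytes and a different amount of RNA per tenocyte cannot be told apart. Nor can RNA of these genes from tenocytes be told from their RNA in other cells.

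**Figure D1:**
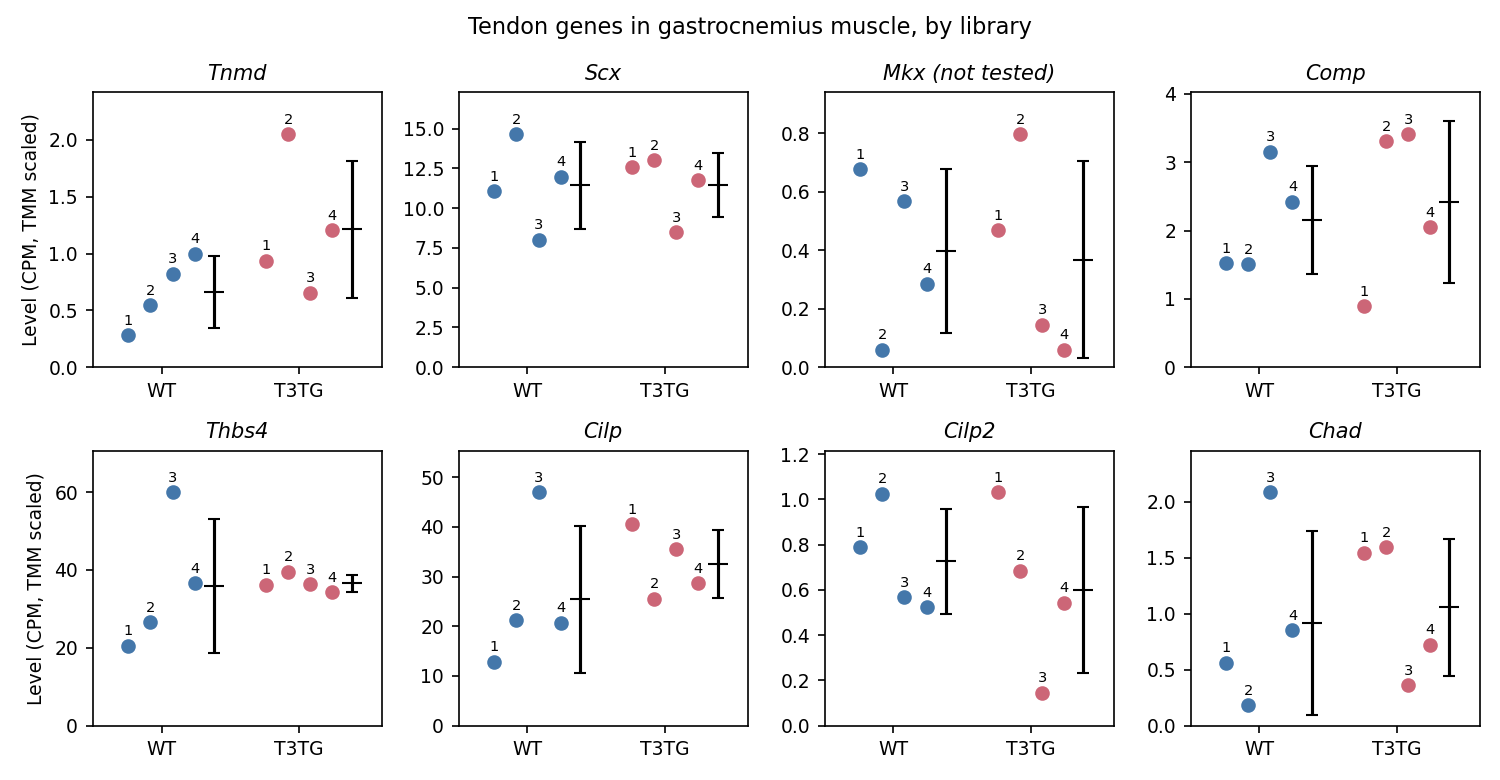
Level of each of the 8 tendon genes in CPM (vertical axes, each from 0) in the WT and T3TG libraries; numbers beside the points are replicates, and black marks are means ± SD (n = 4). Thbs4 ran from 20.5 to 59.9 CPM in the WT group and from 34.3 to 39.5 CPM in T3TG, and the groups overlap in every panel.

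Per kilobase of exon, the genes fell into an upper and a lower set. Thbs4 was at 11.0 ± 3.48, Cilp at 6.82 ± 2.67 and Scx at 5.70 ± 1.11 CPM per kilobase (SD over all 8 libraries). Thbs4 exceeded Cilp in 8 of 8 libraries, whereas Cilp exceeded Scx in 4 of 8, so the order of Cilp and Scx was not resolved. The exon union of Scx, 2007 bases, fills its whole gene span, so any intron in it was counted as exon. The level of Scx per kilobase may therefore be too low beside the other genes. The next gene, Comp, was at 0.770 ± 0.319 CPM per kilobase, below Scx in 8 of 8 libraries. Comp, Tnmd (0.692 ± 0.395) and Chad (0.589 ± 0.402) did not separate beyond their spread, with the higher of each neighbouring pair ahead in 5 of 8 libraries. Cilp2 (0.154 ± 0.0676) was below Chad in 7 of 8 libraries, and Mkx was lowest at 0.0935 ± 0.0700 CPM per kilobase, below Cilp2 in 5 of 8. The level of each gene here is a mean over both groups, since no gene passed the test between them.

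The transcription factors of the tendon program did not pass the test or could not be tested. Scx, which directs tendon progenitors and stays on in tenocytes, lies on chromosome 15 from 76457452 to 76459458 (mm10, GENCODE M21). It had 11.1, 14.7, 8.02 and 12.0 CPM in WT replicates 1 to 4 and 12.6, 13.0, 8.50 and 11.8 CPM in T3TG replicates 1 to 4. Each group held 1 low library, replicate 3 in both, and the other 6 lay close together. The means were 11.4 ± 2.74 CPM in the WT and 11.5 ± 2.04 CPM in the T3TG libraries (SD, n = 4 each), and the log2 fold change was -0.00275 (SE 0.18, 95% interval -0.39 to 0.38, edgeR adjusted p = 0.997). This interval was the narrowest of the 7 and spans ratios of T3TG to WT from 0.765 to 1.30.

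All of the Scx exon sequence lies inside the gene Bop1, a ribosome biogenesis factor transcribed from the opposite strand, and shares no base with an exon of it. The strand setting of the counting is not given in the sources used here, so reads from Scx and from unspliced Bop1 RNA cannot be told apart. Bop1 had 31.4 ± 1.59 CPM in the WT and 34.5 ± 1.86 CPM in the T3TG libraries (log2 fold change 0.14, SE 0.08, edgeR adjusted p = 0.708). Over the 8 libraries, log2 CPM of Scx and Bop1 had a Pearson r of 0.494 (two-sided exact permutation p = 0.231) and a Spearman rho of 0.476 (exact p = 0.243), adjusted to 0.317 and 0.243 over the 2 overlapping pairs examined. Without WT replicate 3 and T3TG replicate 3, the 2 libraries farthest from the median of Scx, r was 0.0549.

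Mkx, the homeobox factor that maintains collagen fibril growth in tendon, was too low to test. Its counts were 12, 1, 9 and 6 in WT and 10, 14, 4 and 1 in T3TG, with replicates in order. Each group held a library with a single count and a library with 10 or more, so the spread within a group covered the whole range. With no filter on low counts the edgeR log2 fold change was -0.13 (SE 0.76, adjusted p = 0.981), which does not bound the difference usefully. Of the Mkx exon bases, 51.4% lie inside AC148004.2, a gene annotated on the same strand, and 201 bases (4.91%) are shared with its exons, so reads there cannot be assigned to Mkx alone.

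Tnmd, the tenocyte marker, had the largest positive log2 fold change of the 7, with wide error. It lies on chromosome X from 133850980 to 133865577. Its counts were 5, 9, 13 and 21 in WT and 20, 36, 18 and 20 in T3TG, which gave 0.282, 0.543, 0.821 and 0.997 CPM in the WT libraries, against 0.937, 2.05, 0.654 and 1.21 CPM in the T3TG libraries. T3TG replicates 2 and 4 stood above every WT library, replicates 1 and 3 stood within the WT range, and the highest value came from replicate 2, a library of even counts. The means were 0.661 ± 0.314 and 1.21 ± 0.604 CPM (SD, n = 4 each), with a log2 fold change of 0.83 (SE 0.48, 95% interval -0.18 to 1.85). The edgeR test gave an unadjusted p of 0.0991 and an adjusted p of 0.678. Of all genes tested, 1.7% had an absolute log2 fold change as large or larger. Without T3TG replicate 2 the log2 fold change was 0.46, and leaving out both even-count libraries gave 0.67 (edgeR adjusted p = 0.973). Without T3TG replicate 3 it was 1.055 (edgeR unadjusted p = 0.0418, adjusted p = 0.655). Without WT replicate 4 it was 1.12 (edgeR unadjusted p = 0.0556, adjusted p = 0.534). The interval covers no difference and a T3TG level 3.60 times that of WT alike.

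The pentameric collagen binders differed between libraries more than between groups. Thbs4, on chromosome 13 from 92751590 to 92794818, had 20.5, 26.6, 59.9 and 36.6 CPM in the WT libraries, against 36.2, 39.5, 36.3 and 34.3 CPM in the T3TG libraries, with replicates in order. The T3TG libraries sat inside the WT range, and WT replicate 3 was the highest and WT replicate 1 the lowest of all 8. The means were 35.9 ± 17.3 CPM in the WT and 36.6 ± 2.15 CPM in the T3TG libraries (SD, n = 4 each), a coefficient of variation of 48.2% against 5.88%. The log2 fold change was 0.03 (SE 0.32, 95% interval -0.73 to 0.79, edgeR adjusted p = 0.990). Without WT replicate 3 it was 0.39 (SE 0.16), with an unadjusted edgeR p of 0.0327 and an adjusted p of 0.662, and without WT replicate 1 it was -0.17.

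Comp, on chromosome 8 from 70373558 to 70382066, is the closest relative of Thbs4 on the list. It had 1.52, 1.51, 3.16 and 2.42 CPM in the WT libraries, against 0.890, 3.31, 3.41 and 2.05 CPM in the T3TG libraries. The lowest and the highest of all 8 values were both T3TG libraries, replicate 1 and replicate 3. The log2 fold change was 0.17 (SE 0.39, 95% interval -0.65 to 0.997, edgeR adjusted p = 0.940). Leaving out T3TG replicates 2 and 3, the 2 highest T3TG values, gave -0.57 (SE 0.44, edgeR adjusted p = 0.964). With the counts of these 2 libraries halved instead, it was 0.11. The sign of Comp was therefore not settled, since it was also negative with voom (-0.03) and with a block on the first title number (-0.08).

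Of the other thrombospondin genes, Thbs1, a secreted activator of latent TGF-beta, had 10.6 ± 1.16 CPM in the WT and 16.2 ± 1.61 CPM in the T3TG libraries (SD, n = 4 each). Its groups did not overlap, but the difference missed the threshold (log2 fold change 0.60, SE 0.13, edgeR adjusted p = 0.0962). For Thbs3 and Thbs2 the log2 fold change was 0.68 (SE 0.19) and 0.37 (SE 0.18), with 0.235 and 0.619 as the edgeR adjusted p. On the list of genes related to the members, 7 of 9 were tested, 0 passed (0.0711% of all genes), 2 were higher at an unadjusted p under 0.05 (5.88% of all genes), and the median log2 fold change was 0.34. Itm2a, which shares a BRICHOS domain with tenomodulin, was the most abundant at 80.0 ± 4.99 CPM in the WT and 81.5 ± 8.38 CPM in the T3TG libraries.

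The intermediate layer proteins pointed in opposite directions, neither past the test. Cilp, on chromosome 9 from 65265180 to 65280605, had 12.9, 21.2, 46.9 and 20.7 CPM in the WT libraries, against 40.6, 25.5, 35.5 and 28.6 CPM in the T3TG libraries. All 4 T3TG libraries stood above WT replicates 1, 2 and 4 and below WT replicate 3. The means were 25.4 ± 14.8 and 32.6 ± 6.78 CPM (SD, n = 4 each), and the log2 fold change was 0.37 (SE 0.41, 95% interval -0.61 to 1.34, edgeR adjusted p = 0.860). Without WT replicate 3 it was 0.84 (SE 0.21), with an unadjusted edgeR p of 0.00331 and an adjusted p of 0.308. With the other 7 libraries left out in turn it ran from 0.14 (without WT replicate 1) to 0.46.

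Cilp2, on chromosome 8 from 69880369 to 69887687, had counts of 14, 17, 9 and 11 in WT and 22, 12, 4 and 9 in T3TG. T3TG replicate 3 was the lowest at 0.145 CPM, and the other 7 libraries lay between 0.522 and 1.03 CPM. The log2 fold change was -0.29 (SE 0.53, 95% interval -1.43 to 0.84, edgeR adjusted p = 0.928). Without T3TG replicate 3 it was 0.07, so its sign rested on that library.

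Chad was the most variable of the 7 tested genes. It lies on chromosome 11 from 94565047 to 94569127 and had counts of 10, 3, 33 and 18 in WT and 33, 28, 10 and 12 in T3TG. WT held both the highest library (replicate 3, 2.08 CPM) and the lowest (replicate 2, 0.181 CPM). The log2 fold change was 0.19 (SE 0.62, 95% interval -1.14 to 1.53, edgeR adjusted p = 0.960), 0.93 without WT replicate 3 and -0.14 without WT replicate 2. The edgeR biological coefficient of variation of Chad was 54.5%, against 17.8% for Scx, 30.9% for Thbs4, 39.2% for Cilp and a median of 14.4% over all genes tested.

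The exons of Chad lie inside the gene Acsf2, a mitochondrial acyl-CoA synthetase on the opposite strand, again with no shared exon base. Acsf2 had 4.15 ± 1.14 CPM in the WT and 4.01 ± 0.629 CPM in the T3TG libraries (SD, n = 4 each). Log2 CPM of Chad and Acsf2 had a Pearson r of -0.408 (two-sided exact permutation p = 0.317) and a Spearman rho of -0.524 (exact p = 0.197), adjusted to 0.317 and 0.243 over the same 2 pairs. Without WT replicates 2 and 3 r was -0.338. Tnmd, Comp, Thbs4, Cilp and Cilp2 overlap no other annotated gene.

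**Figure D2:**
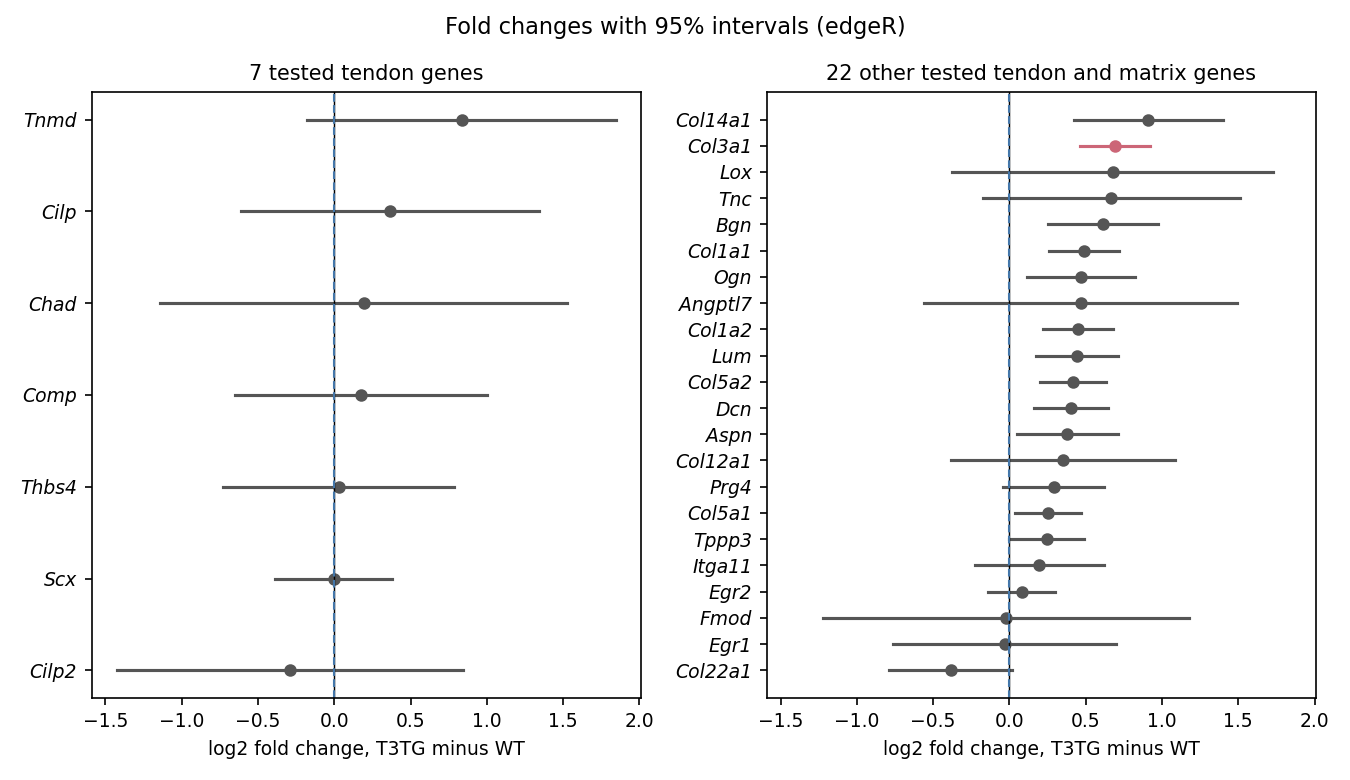
Log2 fold change, T3TG minus WT, with its 95% interval for the 7 tested tendon genes (left) and 22 other tested tendon and matrix genes (right); the dashed line is the median of all genes tested, and red marks an adjusted p under 0.05. All 7 intervals on the left include 0, and on the right Col3a1 alone is marked, at 0.69.

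The genes did not vary as one unit over the libraries. Of the 21 pairs among the 7 tested genes, 13 had a positive Pearson r of log2 CPM (n = 8 libraries), with a median of 0.187 and a range from -0.708 to 0.841. The highest was Thbs4 with Cilp, at r = 0.841 (two-sided exact permutation p = 0.0115, adjusted over the 21 pairs to 0.242) and Spearman rho = 0.524 (exact p = 0.197, adjusted 0.590). It fell to 0.384 without WT replicates 1 and 3, the 2 libraries farthest from the median of Thbs4. Leaving out the extremes of a gene narrows its range, which by itself can lower r. Without the same 2 libraries, r of Thbs4 with Chad rose from 0.682 to 0.801, and r of Cilp with Chad fell from 0.487 to 0.317. The lowest was Comp with Cilp2, at r = -0.708 (exact permutation p = 0.0424, adjusted 0.309) and rho = -0.786 (exact p = 0.0279, adjusted 0.386), and -0.628 without T3TG replicates 1 and 3. No pair passed after adjustment, and r depended on T3TG replicates 1 and 3 for other pairs of Comp too. Without those 2 libraries, r of Comp with Thbs4, Cilp and Chad rose from 0.525, 0.196 and 0.136 to 0.880, 0.706 and 0.915. Scx had negative r with Thbs4, Cilp, Comp and Chad (-0.518, -0.478, -0.549 and -0.253), and none of these differed from 0 by the exact permutation test after adjustment over the 21 pairs. Without WT replicate 3 and T3TG replicate 3, the libraries farthest from the median of Scx, they were 0.192, 0.306, -0.0342 and -0.366. The sign of Scx with Thbs4 and Cilp therefore rested on those libraries.

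A score per library, the mean log2 CPM of the 7 genes minus the WT mean, ran from -0.42 to 0.51 in WT and from -0.18 to 0.57 in T3TG. WT replicate 3 and T3TG replicate 2 were highest (0.51 and 0.57), and WT replicates 1 and 2 and T3TG replicate 3 were below 0 (-0.42, -0.22 and -0.18). The 2 libraries with the highest tendon scores had the lowest scores for 10 fibre markers (-0.13 and -0.28). The fibre markers summed to between 131752 and 143327 CPM in WT and between 114583 and 145737 CPM in T3TG, 2 of 10 had a positive log2 fold change, and 0 passed. For Pvalb, Tnnt3 and Tnnc2, genes of fast fibres, the log2 fold change was -0.22 (SE 0.11), -0.16 (SE 0.10) and -0.14 (SE 0.10). The part of fibre RNA in the tendon scores was not tested.

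**Figure D3:**
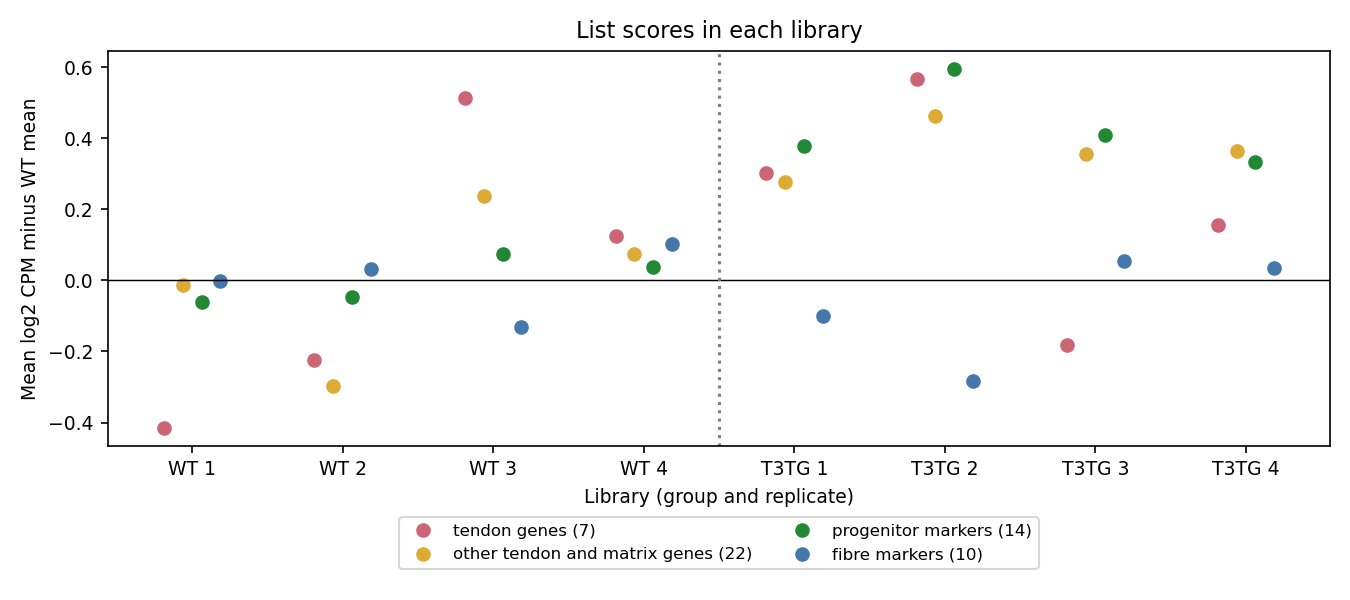
Score of 4 gene lists in each library (mean log2 CPM of the tested members minus the WT mean; numbers of genes in the legend; the dotted line parts WT from T3TG). The tendon genes (red) range from -0.42 to 0.51 in WT and overlap T3TG, whereas the progenitor markers (green) lie between -0.06 and 0.07 in WT and between 0.33 and 0.60 in T3TG.

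The counts for other tendon and matrix genes stand beside those of the 8, and the difference between the lists was not tested. Of 24 genes on a list of collagens, proteoglycans and regulators used by tendon, 22 were tested, 19 had a positive log2 fold change, 11 were higher at unadjusted edgeR p under 0.05, and 1 passed over all genes (0 lower in both counts). Over all genes tested, 49.1% were positive, 5.88% were higher at that p and 0.0711% passed. The median log2 fold change was 0.41 on this list. The intervals of Tnmd, Comp, Thbs4, Cilp, Cilp2 and Chad include that value, and the interval of Scx ends at 0.38. The one that passed was Col3a1, the collagen of young and healing tendon, at 91.7 ± 14.6 CPM in the WT and 148 ± 12.5 CPM in the T3TG libraries (SD, n = 4 each; log2 fold change 0.69, SE 0.11, edgeR adjusted p = 0.0409). With 1 library left out its log2 fold change ran from 0.62 to 0.77, and it passed without WT replicate 3, T3TG replicate 1 and T3TG replicate 3, and in 0 of the 5 fits without WT replicates 1, 2 and 4 and T3TG replicates 2 and 4. It also did not pass without both even-count libraries (0.68, edgeR adjusted p = 0.443). DESeq2 called 5 of the 22.

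Col1a1 and Col1a2, the chains of type I collagen that make up most of tendon, did not pass (log2 fold change 0.49 and 0.45, SE 0.11 for both, edgeR adjusted p = 0.110 and 0.148), and in both the groups did not overlap. Dcn, a small proteoglycan that coats collagen fibrils, was the most abundant at 473 ± 51.0 CPM in the WT and 625 ± 99.8 CPM in the T3TG libraries (log2 fold change 0.40, edgeR adjusted p = 0.257). These collagens and Dcn are made by muscle fibroblasts as well as by tenocytes, and Dcn and Lum stand on the progenitor list below too.

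Of the same list, 7 genes often used to mark tendon or its junction with muscle were singled out after their values were seen. Fmod, the fibril-binding proteoglycan fibromodulin, had 11.0, 5.67, 28.8 and 19.0 CPM in the WT libraries, against 12.2, 22.9, 15.0 and 13.3 CPM in the T3TG libraries, and its log2 fold change was -0.02 (SE 0.50, edgeR adjusted p = 0.996). Like Thbs4, Cilp and Chad, it was highest in WT replicate 3. Kera, a proteoglycan of cornea and tendon, was too low to test, with counts of 2, 1, 18 and 2 in WT and 14, 28, 2 and 7 in T3TG. Its 3 highest libraries, T3TG replicate 2, WT replicate 3 and T3TG replicate 1, were also the 3 with the highest tendon scores. Col22a1, a collagen of the muscle fibre at the myotendinous junction, had 16.5, 13.9, 14.1 and 10.9 CPM in the WT libraries, against 13.3, 9.29, 7.23 and 12.7 CPM in the T3TG libraries (log2 fold change -0.39, SE 0.19, edgeR adjusted p = 0.626). Col14a1, a collagen on the surface of fibrils, had the largest log2 fold change of the list, with 8.75 ± 1.88 CPM in the WT and 16.4 ± 5.22 CPM in the T3TG libraries and no overlap (0.91, SE 0.22, edgeR adjusted p = 0.199). For Tnc, the matrix glycoprotein tenascin C, Angptl7, a secreted angiopoietin-like protein, and Tppp3, a marker of the tendon sheath, it was 0.67 (SE 0.40), 0.47 (SE 0.44) and 0.24 (SE 0.12), with 0.688, 0.828 and 0.605 as the edgeR adjusted p. Of these genes, Fmod and Col22a1 had a negative log2 fold change, Col14a1, Tnc, Angptl7 and Tppp3 a positive one, and 0 passed. The whole list held 3 negative values among 22 tested genes, so this mix depends on the choice of genes.

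Genes of the TGF-beta, BMP and FGF pathways, which act on tendon development, held no gene that passed, and no FGF gene could be tested. Of 19 listed, 14 were tested, 8 had a positive log2 fold change, 3 were higher at an unadjusted edgeR p under 0.05 (5.88% of all genes), 0 passed (0.0711% of all genes), and the median was 0.06. The 3 were Tgfb1, a ligand (9.13 ± 1.79 CPM in the WT and 13.1 ± 1.43 CPM in the T3TG libraries, log2 fold change 0.52, SE 0.15, edgeR adjusted p = 0.284), Tgfbr2, its receptor (0.31, SE 0.10), and Id3, an inhibitor of helix-loop-helix factors (0.37, SE 0.12). Smad3, a signal transducer of TGF-beta and the most abundant of the list, had -0.12 (SE 0.10, edgeR adjusted p = 0.805). The tendon inducers Gdf5, Gdf6 and Gdf7 were too low to test, with 93, 70 and 15 counts over all 8 libraries. So were the FGF genes listed, Fgf4 and Fgf8, with 23 and 2 counts.

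Markers of fibro-adipogenic progenitors, the fibroblast-like cells between muscle fibres, had summed levels that did not overlap between the groups. All 14 tested markers had a positive log2 fold change, 11 were higher at unadjusted edgeR p under 0.05, 3 passed over all genes, and the median was 0.41, beside 49.1%, 5.88% and 0.0711% of all genes. The difference from the tendon genes was not tested. The summed level of the markers ran from 1673 to 2122 CPM in the WT group and from 2240 to 2739 CPM in T3TG. Most of that sum was Gsn and Dcn, with means of 881 and 473 CPM in the WT libraries. By gene, the groups did not overlap in Pdgfra, Pi16, Mme, Gsn and Fbn1 alone, beside 4.78% of all genes tested. Mme, Pi16 and Fbn1 passed, at log2 fold changes of 0.93 (SE 0.16), 0.59 (SE 0.10) and 0.53 (SE 0.09), each with edgeR adjusted p = 0.0409. With 1 library left out, 3 passed without T3TG replicate 1, 1 without WT replicate 3, and 0 in each of the 6 other fits. The calls also fell to 0 without both even-count libraries, with the replicate block on the first title number and with a term for first title number 6. Gsn, the most abundant marker, had 881 ± 104 CPM in the WT and 1153 ± 111 CPM in the T3TG libraries (log2 fold change 0.39, edgeR adjusted p = 0.202).

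Markers of cartilage and bone, tissues that share Comp, Cilp and Chad with tendon, were mostly too low to test. Of 13 cartilage markers, only Sox9 and Col9a1 were tested, at a log2 fold change of 0.37 (SE 0.39) and 0.33 (SE 0.37). Matn1, Matn3, Ucma and Snorc (present under an older symbol) were at 0 counts in every library, Acan reached at most 6 counts and Col2a1 at most 7. Summed cartilage markers ran from 4.74 to 5.98 CPM in the WT group and from 4.43 to 7.75 CPM in T3TG. Of 7 bone markers, Bglap and Ibsp were at 0 in every library, and the 2 tested, Runx2 and Alpl, stood at a log2 fold change of 0.21 (SE 0.50) and 0.03 (SE 0.21). Their sum, nearly all Alpl, ran from 15.9 to 30.7 CPM in the WT group and from 22.4 to 26.0 CPM in T3TG. The library with the most Thbs4, Cilp and Chad, WT replicate 3, had the second lowest cartilage sum of the 8, 4.74 CPM, and the second highest bone sum, 27.8 CPM. The part of cartilage and bone in the tendon values was not tested.

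Schwann cell markers, which stand for the nerve that travels with vessels and connective tissue, had a positive log2 fold change in 6 of 7 (median 0.15, 0 passed). The summed list ran from 99.3 to 256 CPM in the WT group and from 168 to 203 CPM in T3TG. In WT the order of the libraries differed from that of Thbs4, with replicate 4 highest and replicate 2 lowest. Fat cell markers had a positive log2 fold change in 6 of 6 tested (median 1.70, 0 passed, 3 higher at an unadjusted p under 0.05, beside 5.88% of all genes), and their sum ran from 155 to 215 CPM in the WT group and from 165 to 347 CPM in T3TG. Most of that sum was Fabp4, a fatty acid binding protein, at 165 ± 33.9 CPM in the WT and 193 ± 33.3 CPM in the T3TG libraries (log2 fold change 0.23, SE 0.16, edgeR adjusted p = 0.753). The log2 fold change was 1.79 (SE 0.57) for Retn, a fat cell hormone, and 1.92 (SE 0.71) for Adipoq, the adiponectin gene. The parts of nerve and fat in the tendon values were not tested.

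The genes whose log2 CPM followed the mean standardised profile of the 7 tendon genes most closely over the 8 libraries were not on the list of other tendon and matrix genes. Whether tendon expresses them was not examined. Of the 8 highest, 7 are given here: Utp20 (r = 0.988), Nbl1 (0.963), Usp42 (0.932), Zfp580 (0.928), Gm12426 (0.927), Stambp (0.925) and Ece2 (0.909), out of all tested genes with at least 1 CPM. These r are a description over 8 libraries, picked as among the highest of all those genes, with no test. Utp20, a ribosome biogenesis factor, had 14.7 ± 2.19 CPM in the WT and 15.9 ± 1.77 CPM in the T3TG libraries. Nbl1, a secreted BMP antagonist, had 27.9 ± 4.19 and 30.1 ± 3.44 CPM. Ranked by Spearman rho instead, 3 of the 8 remained among the top 8. Among the tendon genes themselves the r with this profile, which each helped to form, was 0.878 for Tnmd, 0.805 for Thbs4, 0.784 for Chad and 0.624 for Cilp, and 0.271 for Comp, 0.157 for Cilp2 and 0.0230 for Scx.

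**Figure D4:**
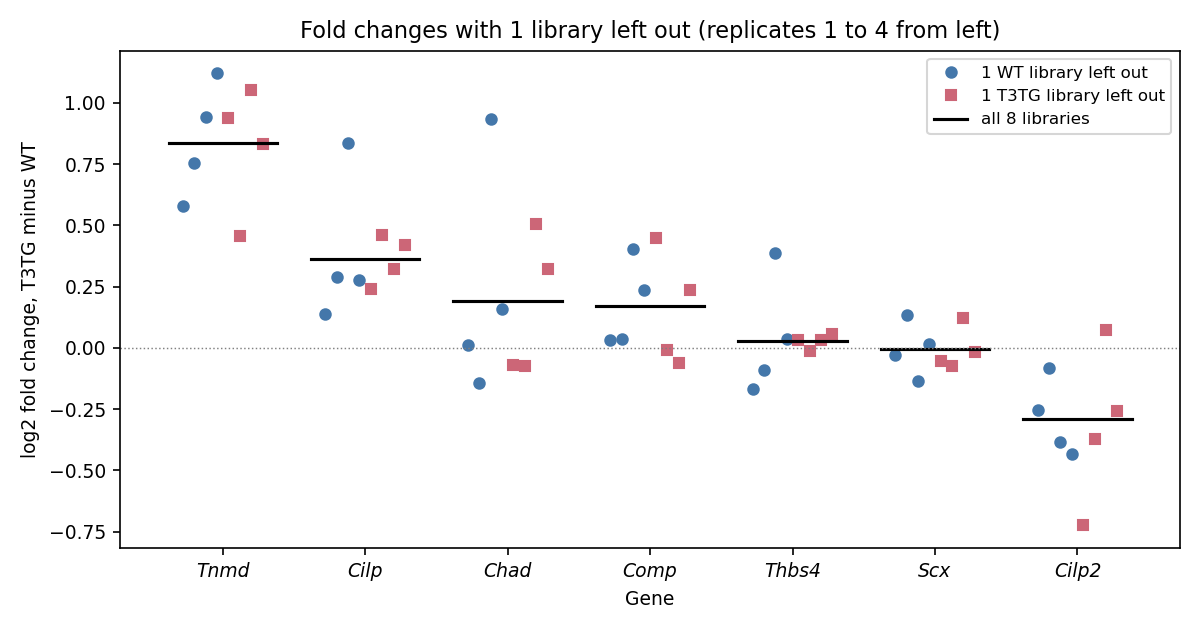
Log2 fold change (T3TG minus WT) of each tested tendon gene in all 8 libraries (black line) and with 1 library left out (blue circles for WT, red squares for T3TG, replicates 1 to 4 from left). Tnmd and Cilp stay above 0 in every fit shown, between 0.46 and 1.12 and between 0.14 and 0.84, and the other 5 genes have points on both sides of 0.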

How the data were processed

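RNA of gastrocnemius muscle was measured in 8 polyA libraries, 4 labelled WT and 4 labelled T3TG. Per the submitters' processing notes, HISAT2 2.2.1, HTSeq 0.9.1 and DESeq2 1.34.0 were used with mm10; the annotation and strand setting: not given in the sources used here. The authors deposited raw counts per gene symbol, without normalization. Of 35976 rows, 27 carry a date in place of a symbol (0.0885% to 0.0961% of a library) and were left out.

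The counts were filtered with filterByExpr (minimum count 10), scaled with TMM factors and tested in edgeR 4.0.16 (R 4.3.3), quasi-likelihood, robust, with a single term for group (T3TG over WT). Benjamini-Hochberg adjustment ran over 14064 genes, and the threshold was 0.05. Scores use log2 CPM with a prior count of 2. The SE is the absolute log2 fold change divided by the square root of F. Lengths (union of exons), coordinates and overlaps come from GENCODE M21 (GRCm38, the assembly of mm10). Counts of all 28 pairs of libraries differed by more than sampling noise (chi-square per degree of freedom of at least 9.70). Named genes are the members, the most abundant tested gene and the 3 lowest p of each list, and the 8 genes most like the members; a gene of the Schwann cell list and 1 of these 8 are not reported here. The members and lists were chosen with earlier results of these data known. The script was run on simulated counts drawn at the dispersion trend over all genes. That run does not measure the power for the tendon genes, whose own biological coefficients of variation ran from 17.8% (Scx) to 54.5% (Chad). Alternatives were other scaling, filters, DESeq2 1.42.0, voom (limma 3.58.1), model terms for title numbers, the treatment of libraries with even counts, and leaving out each library.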

Additional observations from a re-analysis of the deposited data

How the results depend on the processing

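In 19 alternatives, 0 tendon genes passed. Of 130 log2 fold changes of the 7 genes in them, 106 kept their sign and 24 did not. Tnmd and Cilp kept theirs throughout. Scx was at 0.00611 with upper quartile factors, 0.0528 with library totals, 0.0169 with voom, 0.0893 without both even-count libraries and 0.0196 with a term for first title number 6. Comp was at -0.0253 with voom, -0.0849 with the block on the first title number, -0.571 without the even-count libraries and -0.375 with the term for number 6. In the latter 2 settings Cilp2 was at 0.141 and 0.0920, and Thbs4 was at -0.0246 without the even-count libraries. With 1 library left out, Scx ran from -0.137 to 0.137, Comp from -0.0609 to 0.450, Thbs4 from -0.169 to 0.387, Cilp2 from -0.724 to 0.0734 and Chad from -0.142 to 0.933. The median over the 7 ran from -0.0136 to 0.404 (0.17 in all 8 libraries), and 0 to 2 genes were higher at an unadjusted p under 0.05 (Cilp and Thbs4 without WT replicate 3, Tnmd without T3TG replicate 3).

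The stricter filter left 4 tendon genes to test. The first title number has no stated meaning and equals 6 for 1 WT and 3 T3TG libraries. Same-numbered libraries of the 2 groups deviated from their group means with r of -0.0537 to 0.155, and differently numbered ones with r of -0.189 to 0.0847. These ranges overlap, and whether the numbers pair libraries was not tested. With that replicate block, 1 tendon gene, Cilp, was higher at an unadjusted edgeR p under 0.05 (log2 fold change 0.693, adjusted p = 0.302). Of the 22 other tendon and matrix genes, 5 were called with no filter and 5 with DESeq2, 0 without the even-count libraries, and 0 to 1 with 1 library left out. Of the 14 progenitor markers, 7 were called with no filter, 5 with DESeq2, 0 with the block, 0 with the term for number 6, 0 without the even-count libraries, and 0 to 3 with 1 library left out. Spearman ranking shared 3 of the 8 genes most like the members. Causes were not tested. Counts per library of Tnmd, Mkx, Cilp2 and Chad ran from only 1 to 36, which limits their precision beside the spread between libraries.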
